A study of Mus musculus with 4 samples.

Results

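In common bile ducts of mice carrying a mosaic gain of function of beta-catenin (Ctnnb1), epithelial cells with transcripts of the Wnt target genes Lgr5 and Notum were set apart and described. They were the cells of the single gain-of-function library (genotype label Prom1_BcatGOF, here BcatGOF) with at least 500 detected genes, at most 25% mitochondrial molecules, no Ptprc, at least 1 Epcam molecule, at most 1 of the mitotic genes Mki67, Top2a and Ube2c detected, and at least 2 molecules of Lgr5 and Notum together. A molecule is a UMI, a transcript tagged once before amplification. The rule found 612 cells among the 5321 cells of this epithelial gate, from 10796 cell barcodes of the library and 22968 in the 4 libraries of the series. They were compared with 1342 cells of the same gate that had Axin2 or Nkd1, which also respond to Wnt, but no Lgr5 or Notum molecule. These are called Lgr5 Notum cells and Axin2/Nkd1 cells below. The measured Lgr5 and Notum counts chose the cells, so the levels of these genes, and of Axin2 and Nkd1, are given as a description with no test.

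The other 3 libraries came from wild-type common bile ducts. In each case whole ducts were dissected, dissociated with enzymes and run in droplets with 3′ chemistry, with no sort for a cell type. All animals are labelled untreated, and no age is given. The labels name Prom1 in the genotype without saying what it marks, and they do not describe the construct, its driver or how many animals entered a library. Gain of function was mosaic by the series' own description, so the library can hold altered and unaltered cells. A 3′ count of Ctnnb1 does not show whether the protein was altered: the level was 271 CPM (molecules scaled to a common library total) in Lgr5 Notum cells, 264 in Axin2/Nkd1 cells and 566, 528 and 423 in the 3 wild-type gates.

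Wnt signalling stabilises beta-catenin, which enters the nucleus and joins TCF/LEF factors at target genes. Some of these targets feed back on the pathway: Axin2 is a scaffold of the complex that destroys beta-catenin, Nkd1 binds Dishevelled, Notum is a secreted enzyme that removes the lipid from Wnt ligands, and Znrf3 and Rnf43 are ubiquitin ligases that remove Frizzled receptors from the cell surface. Lgr5 is a receptor for R-spondins, which block Znrf3 and Rnf43, and is best known as a marker of intestinal and gastric stem cells. In liver it marks hepatocytes near the central vein, and it is not among the usual markers of resting cholangiocytes, the epithelial cells that line bile ducts.

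Promoter sequence is shown for 3 genes that moved together with Lgr5 and Notum below, because TCF/LEF factors recognise short letters of the kind searched for. The letters CTTTGAT and CTTTGAA were sought on both strands in the 250 bases upstream of each RefSeq start (build GRCm38.p6). Matches are in capitals and the runs read 5′ to 3′ along the gene. Sp5, a transcription factor gene, holds CTTTGAT from 104 bases upstream of its start (chr2:70474673-70474922, plus strand). Axin2 (chr11:108920099-108920348, plus strand) holds no match in this window. Tnfrsf19, a receptor of the tumour necrosis factor family also called Troy, holds the reverse complement from 202 bases upstream of one of its starts, shown with 10 bases either side (chr14:61038173-61038199, minus strand).
Sp5: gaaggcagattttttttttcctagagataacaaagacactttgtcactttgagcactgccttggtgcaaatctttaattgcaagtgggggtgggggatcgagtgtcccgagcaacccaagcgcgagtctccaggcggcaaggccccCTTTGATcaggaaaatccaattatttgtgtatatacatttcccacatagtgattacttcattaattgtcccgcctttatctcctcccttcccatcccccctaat
Axin2: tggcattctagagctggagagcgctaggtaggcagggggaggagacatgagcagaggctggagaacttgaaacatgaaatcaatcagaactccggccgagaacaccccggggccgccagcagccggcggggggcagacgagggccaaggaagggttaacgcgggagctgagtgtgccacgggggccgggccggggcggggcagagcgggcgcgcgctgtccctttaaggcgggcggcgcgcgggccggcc
Tnfrsf19: tgaatgggggATCAAAGtgacaaacta

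One of these letter strings lay in 8.63% of the 27025 genes with a window. It lay in 2 of the 8 genes of a Wnt feedback list that had a window (Sp5 and Dkk1) and in 4 of 21 other Wnt targets (Tnfrsf19, Mycn, T and Sp8). Of the genes named below, Mecom also held CTTTGAT, from 38 bases upstream of one start, while Nkd1, Rgs7, Ptprt, Pgc, Gkn3 and Muc6 held none. Lgr5, Notum and Znrf3 had no entry. A match is a description of letters, not of binding, and a window without one says nothing about regulation from elsewhere.

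Lgr5 and Notum were both present in the group, with Notum the more abundant in counts. Lgr5 had 1203 molecules in 401 of the 612 cells (65.5%) and Notum had 1660 in 504 cells (82.4%). Both were seen in 293 cells, Lgr5 alone in 108 and Notum alone in 211. The sum ran from 2 to 114 molecules per cell with a median of 3, so many cells lay near the threshold: 219 had exactly 2 molecules, and 522 further gate cells had 1 and were left out.

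Depth differed between the groups that this rule makes. The median cell held 18166.5 molecules among Lgr5 Notum cells, 11695.5 among cells with 1 Lgr5 or Notum molecule and 9057.5 among Axin2/Nkd1 cells. The part of depth in the makeup of the groups was not tested beyond the thinned shares and the weighted ratios given below. Median mitochondrial shares were 2.96% and 3.15%. Called doublets made up 12.3% of Lgr5 Notum cells and 10.8% of Axin2/Nkd1 cells. Between 5 and 19 barcodes were shared between pairs of libraries, and 1 of them was a Lgr5 Notum cell.

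Such cells were nearly absent from the wild-type gates. They made up 11.5% of the BcatGOF gate (95% exact Clopper-Pearson interval 10.7 to 12.4%), against 5 of 3167 cells (0.158%), 2 of 1663 (0.120%) and 0 of 1344 in the wild-type gates. A count of 0 in the third gate allows a share of up to 0.223% by the limit of 3 counts, or 0.274% by the Clopper-Pearson interval. After each cell was thinned to 2000 molecules, 342 of 4750 BcatGOF gate cells (7.20%) kept at least 1 Lgr5 or Notum molecule, against 21.3% at full depth, and 74 (1.56%) kept at least 2, with 571 shallower cells left out. Wild-type shares with at least 1 after thinning were 0.300%, 0% and 0.432%. Background from free RNA was read in BcatGOF immune cells, chosen by Ptprc and no Epcam, where 6 of 1636 thinned cells (0.367%) had a molecule. In wild-type immune cells deep enough to thin, 0 of 172, 1 of 104 and 0 of 66 had a molecule, too few to set a background for those libraries. The BcatGOF gate share lay above that of the immune cells of its own library. These intervals cover counting error only, and with 1 BcatGOF library no test between genotypes was made on the shares.

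The BcatGOF library held cells of both sexes by their transcripts. In the wild-type libraries 9, 12 and 5 barcodes had Xist alone, against 2267, 974 and 654 with Y-linked transcripts alone. Xist without Y-linked transcripts was seen in 2132 BcatGOF gate cells and Y-linked transcripts without Xist in 1776, so at least 1 female and 1 male source entered the library. Lgr5 Notum cells were found in both: 15.3% of the Xist cells (13.8 to 16.9%) and 11.1% of the Y-linked cells (9.72 to 12.7%). Cells with both kinds of transcript made up 9.97% of Lgr5 Notum cells and 6.48% of Axin2/Nkd1 cells, and can be doublets or carry free RNA.

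The label of the cells was checked against fixed marker lists. All 8 epithelial markers were present, and their summed level was nearly the same in Lgr5 Notum and Axin2/Nkd1 cells, at 15653 and 15437 CPM. Epcam, the gate's adhesion molecule, stood at 1813 and 1628 CPM, and Sox9, a duct transcription factor, at 308 and 234 CPM. Of hepatocyte genes Ttr was high (2333 CPM) but Alb stood at 0.950 CPM. The pancreatic acinar list summed to 0.882 CPM, with no molecule of Cpa1, Cela2a and Try5. Endocrine markers summed to 16.0 CPM, with no molecule of Gcg and Neurod1. Of the mucous gland list the mucin Muc5b had no molecule, but the list summed to 1811 CPM against 1122 in Axin2/Nkd1 cells. Its per-cell medians were 168 and 181 CPM. Tuft markers summed to 464 against 340 CPM, with per-cell medians of 158 and 88.1 CPM. Fibroblast markers summed to 185 CPM against 1409 in Axin2/Nkd1 cells, so the comparison group held the larger amount of stromal RNA.

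Lgr5 Notum cells were spread over several clusters of the duct epithelium. When the gate was clustered without Lgr5, Notum, Axin2 and Nkd1, 22 clusters were found, and 6 clusters with at least 30 Lgr5 Notum cells held 536 of the 612 (87.6%), against 57.6% of Axin2/Nkd1 cells. Cluster 4, led by the gland genes Gkn3, Muc6 and Tff2 and therefore called mucous gland-like, had the highest share: 138 of its 279 cells were Lgr5 Notum cells (49.5%, 43.4 to 55.5%). Cluster 1, led by Serpinb11, Adgrl3 and Kcnq5, followed with 75 of 190 cells (39.5%, 32.5 to 46.8%). Next were cluster 14, led by Rgs13 and Sh2d6 and rich in tuft cell markers (tuft-like; 29.6%, 22.6 to 37.3%), and cluster 11, led by Ltf, S100g and Mmp7 (25.8%, 21.5 to 30.5%). Each of these intervals overlaps that of its neighbour in the order.

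Other clusters nearly lacked them. Cluster 6, led among annotated genes by Cmss1, Cyp2c65 and Sult1c2, held 1 Lgr5 Notum cell in 673 (0.149%, 0.00376 to 0.825%). Cluster 7, led by the antimicrobial lectins Reg3b and Reg3g, held 4 in 415 (0.964%, 0.263 to 2.45%). Thinning to equal depth kept this contrast, with at least 1 Lgr5 or Notum molecule in 29.9% of cells of cluster 4, 24.8% of cluster 14 and 22.8% of cluster 1, but in 0.627% of cluster 6 and 0.978% of cluster 7. It lowered cluster 11 to 8.68% and cluster 2, led by Car4 and Slc2a2, to 3.80%: the median cells of these 2 clusters held 21906.5 and 24900.0 molecules.

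**Figure D1:**
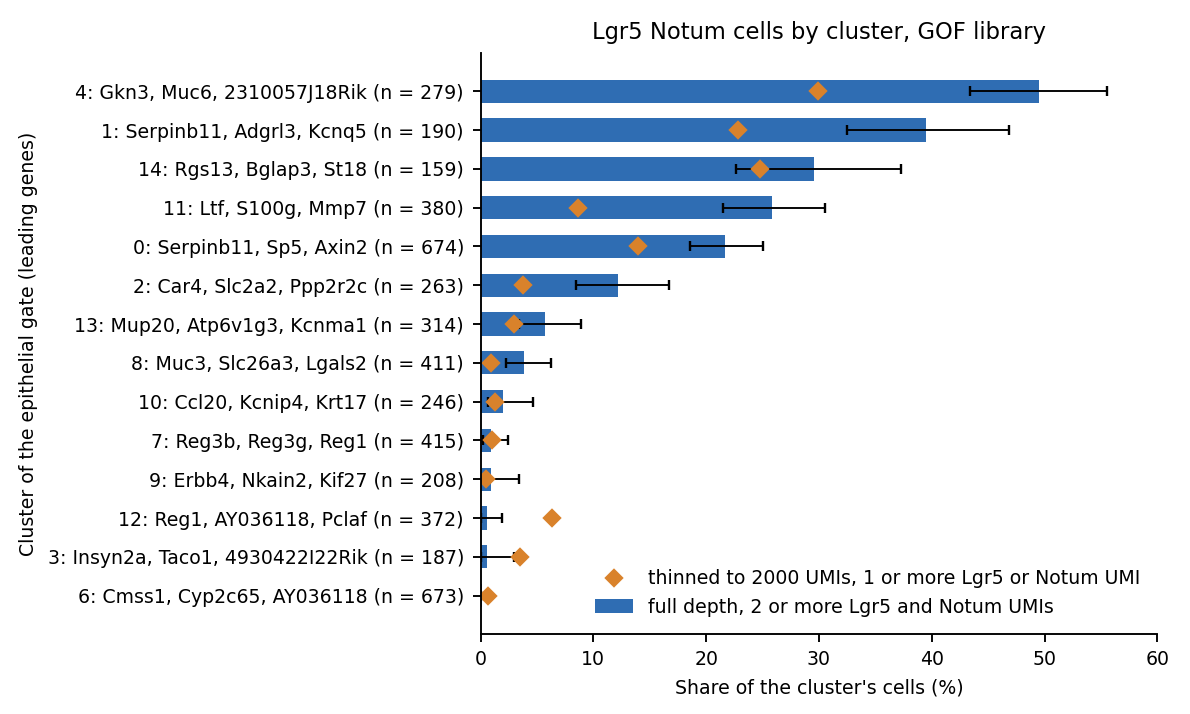
Share of each cluster's cells that are Lgr5 Notum cells, in % (bars, with 95% Clopper-Pearson intervals), and share with at least 1 Lgr5 or Notum molecule after thinning to 2000 molecules (diamonds). Clusters of at least 100 cells that hold no marker list of another cell type are shown; cluster 4 stands highest at 49.5% and cluster 6 lowest at 0.149%. Thinned shares of clusters 12 and 3 rest on 94 and 57 cells deep enough to thin.

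A further 8 of the 22 clusters carried marker lists of other cell types at 500 CPM or more (endocrine, macrophage, fibroblast, smooth muscle, endothelial or B cell), although each of their cells had an Epcam molecule. They held 27 Lgr5 Notum cells (4.41%) and 165 Axin2/Nkd1 cells (12.3%). Ratios between the groups are therefore given with and without these clusters where that matters.

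The balance between the chosen genes differed by cluster. In the tuft-like cluster Lgr5 outweighed Notum, with 172 against 60 molecules in its 47 Lgr5 Notum cells, so that Lgr5 made up 74.1% of the pair (68.0 to 79.6%). In cluster 0, led by Serpinb11, Sp5 and Axin2, Notum outweighed Lgr5 with 362 against 155 molecules, and the interval of the Lgr5 share was 26.1 to 34.1%. Mucous gland-like cells lay between, at 38.8% (35.7 to 41.9%). The levels in the tuft-like cells were 213 CPM for Lgr5 and 74.4 CPM for Notum, and in the mucous gland-like cells 148 and 234 CPM.

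**Figure D2:**
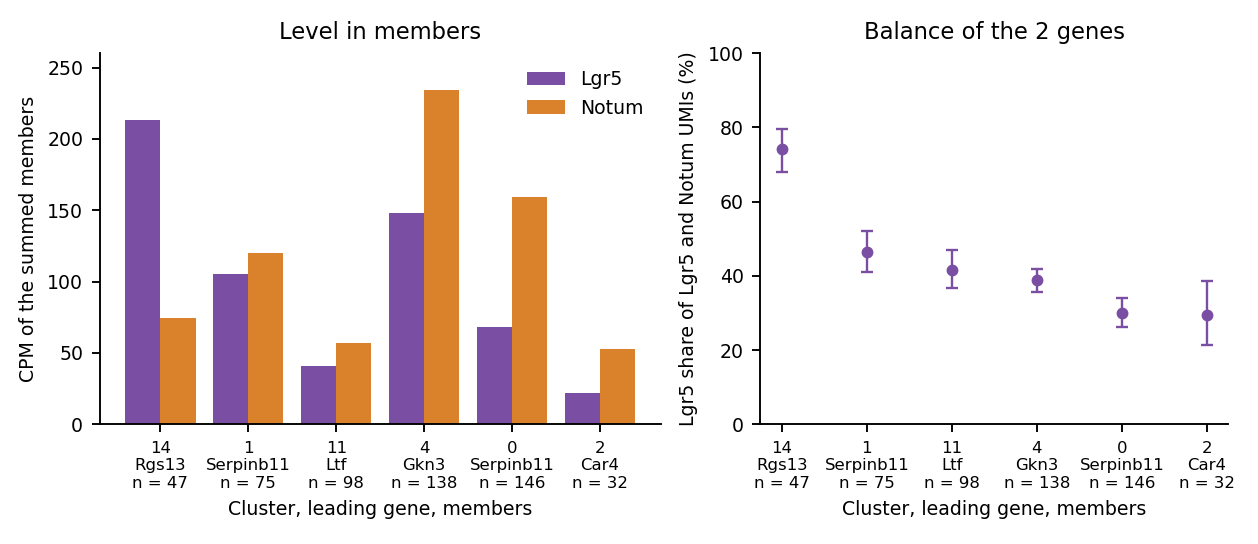
Left, CPM of Lgr5 and Notum in the summed Lgr5 Notum cells of each cluster with at least 30 of them; right, Lgr5 molecules as % of Lgr5 and Notum molecules, with 95% Clopper-Pearson intervals. Only the tuft-like cluster 14 lies above 50% with its whole interval.

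Cells with 1 of the pair alone differed too, and for the tuft gene in the direction seen by cluster. Trpm5, the cation channel of tuft and taste cells, stood at 109 CPM in the 108 cells with Lgr5 alone, 6.71 CPM in the 211 with Notum alone and 7.51 CPM in the 293 with both. Gkn3, a gastrokine of mucous neck cells of the stomach, stood at 1658, 343 and 1061 CPM in the same order. It was thus highest with Lgr5 alone, although Notum outweighed Lgr5 in the mucous gland-like cluster. Erbb4, a receptor of the epidermal growth factor family, stood at 119, 38.4 and 35.4 CPM. Lgr5 alone without Notum was thus the class with the most tuft gene, while Axin2 was lowest there, at 131 CPM against 224 and 227 CPM. Median depth was 8843.5 molecules with Lgr5 alone, 18524.0 with Notum alone and 21737.0 with both, and its part was not tested.

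Other Wnt target genes followed the Lgr5 and Notum count in graded form. Over gate cells with 0, 1, 2 to 3 and 4 or more Lgr5 and Notum molecules (4187, 522, 356 and 256 cells), Tnfrsf19 stood at 46.3, 137, 168 and 227 CPM. Znrf3 stood at 127, 220, 261 and 368 CPM, and Rnf43 at 95.3, 152, 181 and 208 CPM. Sp5 stood at 26.0, 73.2, 83.0 and 98.9 CPM. The cells just outside the rule, with 1 molecule, were for these genes closer to the Lgr5 Notum cells than to cells with none, so the threshold cuts through a range. Median depth climbed over the same classes from 7399.0 to 22434.5 molecules, and its part in the steps was not tested.

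The markers named for these cells, chosen with earlier results of these data known, followed too. Rgs7, a regulator of G protein signalling best known from neurons, stood at 14.0, 21.2, 27.0 and 59.8 CPM over the classes. Ptprt, a receptor tyrosine phosphatase, stood at 150, 236, 286 and 449 CPM. Pgc, the precursor of the stomach protease pepsin C, stood at 136, 277, 335 and 418 CPM. All 3 were highest in the cells with most Lgr5 and Notum.

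Shares of cells at equal depth gave the same order for these genes. After thinning to 2000 molecules, Tnfrsf19 was seen in 32.1% of Lgr5 Notum cells, 21.3% of Axin2/Nkd1 cells and 0.367% of immune cells of the library, which should lack it (83.7% and 49.4% of the first 2 groups before thinning). Ptprt was seen in 48.4%, 29.8% and 1.22%, and Pgc in 46.6%, 32.9% and 1.34%. Rgs7, the scarcest, was seen in 7.44%, 3.89% and 0.0611%. All 4 stood above the immune background in both epithelial groups.

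Several genes of the differentiated duct ran the other way. Krt19, the keratin that marks cholangiocytes, stood at 2542, 2035, 1814 and 1449.7 CPM over the classes. Pkhd1, the fibrocystin gene of the primary cilium, stood at 312, 224, 183 and 132 CPM. Ano1, a calcium-activated chloride channel of secreting ducts, stood at 311, 289, 235 and 180 CPM. Slc2a2, a glucose transporter, stood at 77.6, 72.5, 42.2 and 26.1 CPM. Each was lowest in the cells with 4 or more Lgr5 and Notum molecules, while Krt19 stayed among the abundant transcripts in all classes.

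**Figure D3:**
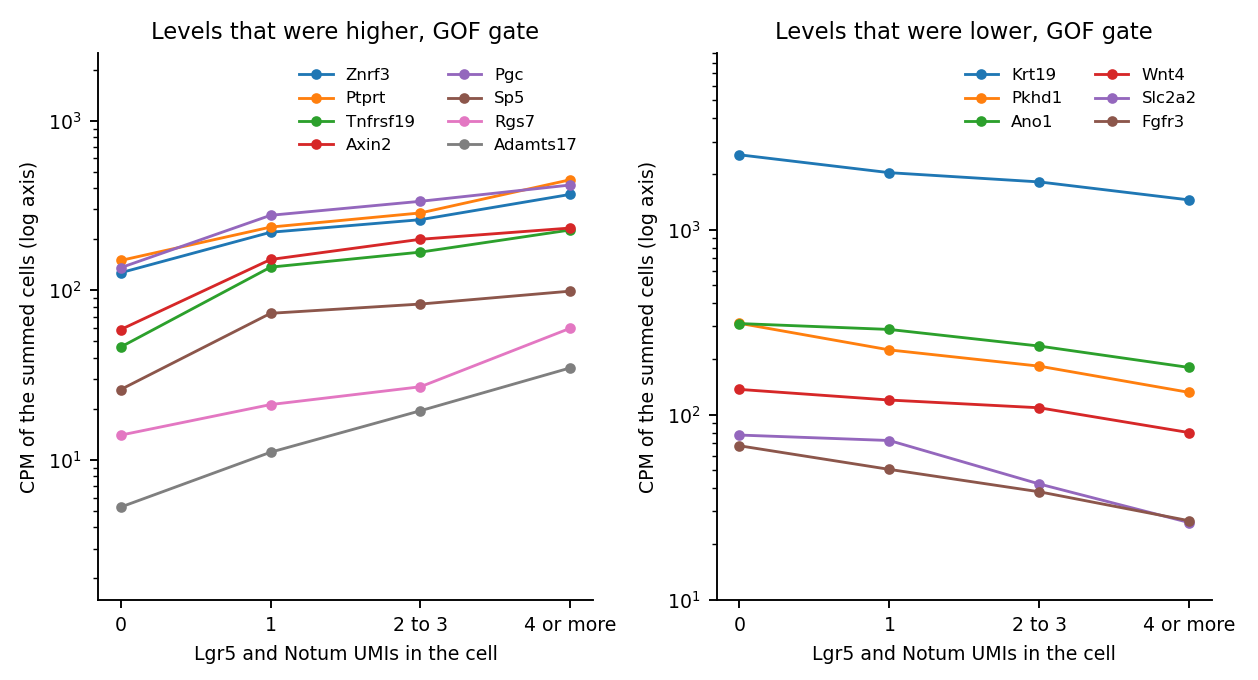
CPM of summed gate cells of the BcatGOF library (log axis) by the number of Lgr5 and Notum molecules in the cell. Left, Wnt targets and named markers, such as Tnfrsf19 from 46.3 to 227 CPM; right, duct genes, such as Krt19 from 2542 to 1449.7 CPM.

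The next comparison asks how these cells differ from other cells of the same library with Wnt target transcripts, and few genes differed by much. Of 7026 genes that reached 20 CPM in at least one of the groups, 26 (0.370%) were at least 2-fold higher in Lgr5 Notum cells and 150 (2.13%) at least 2-fold lower. Both groups come from 1 library, so the comparison has no replicate, no p-value is given, and the intervals below are exact counting intervals only. The median log2 ratio over all these genes was 0.02.

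The largest ratio was that of Gkn3, at 874 against 126 CPM, a log2 ratio of 2.79 (6.92-fold, 6.63 to 7.23). Muc6, the mucin of deep glands, followed at 65.9 against 19.1 CPM (1.78). The secretory regulators Creb3l4 (log2 1.75) and Spdef (41.2 against 16.0 CPM) and the endoderm factor Foxa3 (36.7 against 14.6 CPM) were also higher. These genes lead or belong to the mucous gland-like cluster, which held 22.5% of Lgr5 Notum cells and 3.80% of Axin2/Nkd1 cells. With the comparison cells weighted to the clusters of the Lgr5 Notum cells, the log2 ratio was 0.38 for Gkn3, 0.11 for Creb3l4, 0.18 for Spdef and 0.13 for Foxa3, and Muc6 turned to −0.77. Within cluster 4 itself Gkn3 stood at 4414 against 3199 CPM, and in clusters 0, 1, 2 and 11 it was lower in Lgr5 Notum cells.

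Other leading genes kept a higher level inside the clusters. Adamts17, a secreted metalloprotease, stood at 26.7 against 8.22 CPM (log2 1.70, 3.25-fold, 2.70 to 3.93) and was higher in 6 of 6 clusters, and after weighting to clusters its log2 ratio was 1.26. Gas2l3, a linker of actin and microtubules, stood at 64.7 against 24.6 CPM (log2 1.40), higher in 6 of 6 clusters and at 0.93 after weighting. Adamtsl3, a secreted relative of these proteases, stood at 97.7 against 39.2 CPM (log2 1.32), higher in 6 of 6 clusters and at 0.51 after weighting. Mecom, a zinc finger transcription factor, stood at 42.8 against 14.1 CPM (log2 1.60), higher in 6 of 6 clusters and at 0.62 after weighting. With that weighting Adamts17 was still at least 2-fold higher. Gbp2, an interferon-induced GTPase gene, turned from a pooled log2 ratio of −0.57 to 1.07, and Tff2 and Tmem45a were among the genes at least 2-fold lower. These 4 are named after their values were seen.

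Most measured Wnt target genes had a ratio above 0, by less than 2-fold for most. Of all 7026 genes 55.6% lay above 0. Of the Wnt feedback list, 3 genes other than the genes of the rule reached 20 CPM, and all lay above 0 with a median log2 ratio of 0.83: Znrf3 (311 against 171 CPM, 0.87), Sp5 (90.5 against 50.8 CPM, 0.83) and Rnf43 (194 against 128 CPM, 0.60). Among 13 measured other Wnt targets, 9 lay above 0, the median was 0.30 and 1 passed 2-fold, Tnfrsf19 at 196 against 88.0 CPM (log2 1.15, 2.23-fold, 2.10 to 2.36). Ascl2, a stem cell transcription factor, stood at 37.3 against 20.2 CPM (0.89), but it was higher in 3 and lower in 3 of 6 clusters and at 0.10 after weighting to clusters. Weighted the same way, Znrf3 was at 0.46, Tnfrsf19 at 0.66, Sp5 at 0.26 and Rnf43 at 0.18. Axin2 and Nkd1, by which the comparison cells were chosen, were still higher in Lgr5 Notum cells, at 215 against 128 CPM and 206 against 98.3 CPM. Their per-cell mean, which gives shallow comparison cells more weight, lowered these log2 ratios from 0.75 to 0.16 and from 1.07 to 0.48. In the 52 and 180 cells without any molecule of 7 marker genes of other cell types, the log2 ratio of Axin2 was −0.04 and that of Nkd1 0.81.

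Within clusters the Wnt genes split. Tnfrsf19 and Znrf3 were higher in Lgr5 Notum cells in 6 of 6 clusters, with the counting interval above 1 in 5 of them for each. Axin2 and Nkd1 were higher in 6 of 6 too, which is only a description because they chose the comparison cells. In the tuft-like cluster Tnfrsf19 stood at 144 against 52.6 CPM and in cluster 11 at 131 against 59.2 CPM, but in cluster 0 only at 278 against 244 CPM. Sp5 was higher in 4 of 6 clusters and about level in clusters 0, 1 and 4. Ptprt was higher in 6 of 6 clusters and Rgs7 in 4 of 6. Weighted to clusters, the log2 ratio of Rgs7 was 0.04 in place of 1.21, and in the mucous gland-like cluster it stood at 137 against 159 CPM.

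Several duct and growth factor genes lay on the same side in most clusters. Krt19 was lower in Lgr5 Notum cells in 6 of 6 clusters (pooled 1643 against 2251 CPM, log2 −0.45), with the counting interval below 1 in 5. Ano1 was lower in 6 of 6 (209 against 301 CPM, −0.53) and Pkhd1 in 5 of 6 (159 against 240 CPM, −0.59), the exception being the tuft-like cluster at 257 against 194 CPM. Areg, the ligand amphiregulin, was higher in 6 of 6 clusters (121 against 70.7 CPM, 0.78), as was Id3, a target of BMP signals (132 against 96.8 CPM, 0.45). Lrig1, an inhibitor of epidermal growth factor receptors and a stem cell marker in gut and skin, was 2.12-fold higher (64.5 against 30.4 CPM, 1.92 to 2.36) and higher in 6 of 6, with the counting interval above 1 in 2 of them and a log2 ratio of 0.31 in place of 1.09 after weighting to clusters.

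**Figure D4:**
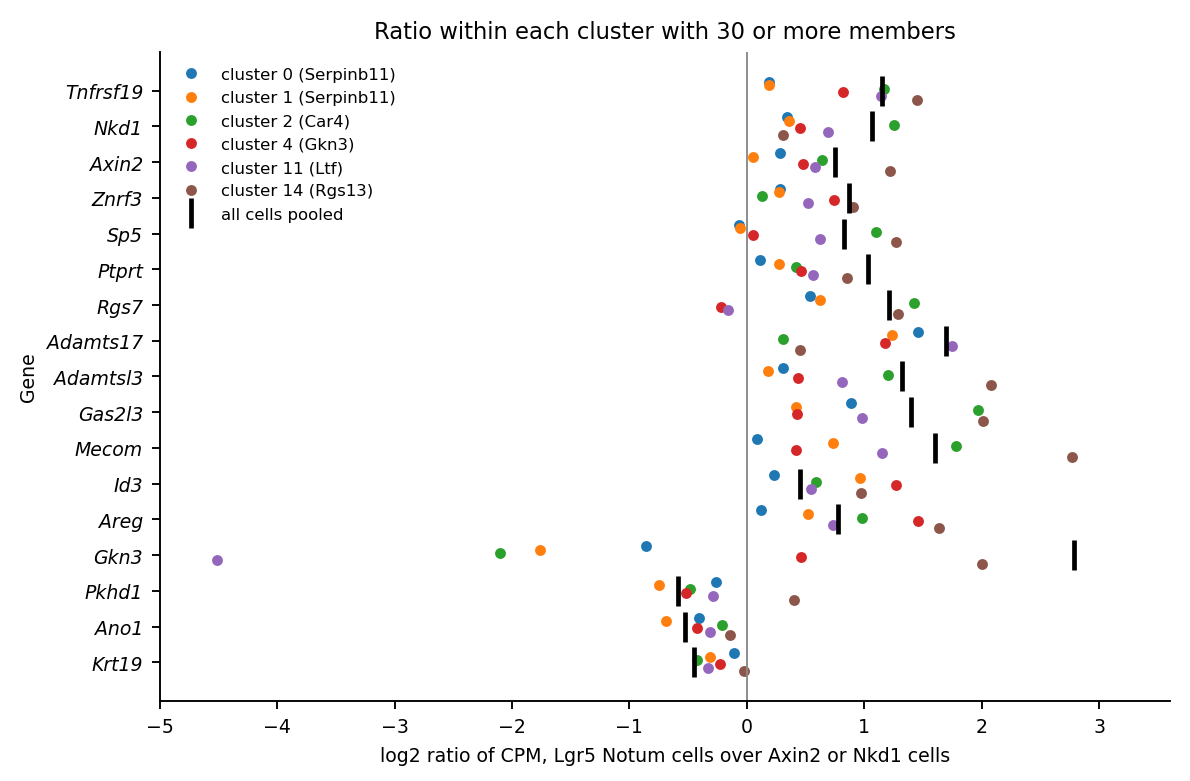
Log2 ratio of CPM, Lgr5 Notum cells over Axin2/Nkd1 cells, in each cluster with at least 30 Lgr5 Notum cells (points) and over all cells (bars). Tnfrsf19 and Adamts17 lie right of 0 and Krt19 and Ano1 left of 0 in 6 of 6 clusters, while Gkn3 spreads from −4.51 to 2.00. Axin2 and Nkd1 are genes of the rule and are shown as a description.

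The genes with lower levels were mostly those of other cell types. Ghrl, the endocrine hormone ghrelin, stood at 0.543 against 35.8 CPM, Ppy, pancreatic polypeptide, at 8.35 against 136 CPM, and Upk3b, a mesothelial gene, at 3.19 against 47.6 CPM. Rspo1, an R-spondin made by stroma and mesothelium, stood at 1.56 against 25.3 CPM. These moved with the marker lists: endocrine markers summed to 16.0 against 167 CPM and mesothelial markers to 131 against 336 CPM. Without the 8 clusters of other cell types, 29 genes were at least 2-fold higher and 5 at least 2-fold lower, and Ghrl, Ppy and Rspo1 stood at log2 0.67, 0.37 and 0.25. The 5 lower genes then were Akr1b7, Slc26a3, Slc2a2, Sult1d1 and Tppp3, named because they are all that passed. Slc2a2 stood at 35.7 against 77.7 CPM and Slc26a3, an anion exchanger, at 13.2 against 28.1 CPM. Weighted to clusters, their log2 ratios were −0.46 and 0.15. Slc2a2 was higher in 3 and lower in 3 of 6 clusters, and Slc26a3 higher in 2 and lower in 1.

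Most other fixed lists held few or no genes past 2-fold, and the lists are given by count because the members were chosen. Lower genes were most frequent in the epithelial plasticity list (4 of 15) and the Reg and antimicrobial list (3 of 14). None of these was among the 5 lower genes left without clusters of other cell types. Over all 7026 genes 0.370% were at least 2-fold higher and 2.13% lower, so a short list without such a gene is no result about that list. None of 15 measured beta-catenin complex genes, 4 Notch genes, 22 oxidative phosphorylation subunits, 16 antigen presentation genes, 21 immediate early genes or 4 mitotic and replication genes passed 2-fold in either direction. Their median log2 ratios were 0.03, 0.12, −0.01, 0.03, −0.00 and 0.13. The 3 measured Wnt ligand genes all lay below 0, with Wnt4 at 95.2 against 136 CPM and Wnt7b at 46.2 against 61.3 CPM. Lgr4, the other R-spondin receptor of these cells, stood at 54.9 against 51.9 CPM. Prom1, named in the genotype, stood at 276 against 239 CPM.

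The differences held in cells of either sex type for the leading genes. Among Xist cells Tnfrsf19 stood at 198 against 80.3 CPM, and among Y-linked cells at 201 against 96.1 CPM. Adamts17 stood at 31.3 against 8.26 CPM and at 20.5 against 7.12 CPM. Mmp7, a matrix metalloprotease of duct epithelium, stood at 2864 against 2178 CPM in Xist cells and at 1301 against 591 CPM in Y-linked cells, so its level differed more between the sources than between the groups. Sex type and animal cannot be told apart here.

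Against wild-type epithelium, Lgr5 Notum cells carried a large set of changes. The summed cells were tested against the summed epithelial gates of the 3 wild-type libraries (35431356, 12372522 and 7021096 molecules) with edgeR's quasi-likelihood test, with p-values adjusted by Benjamini-Hochberg over all 14954 genes tested. At an adjusted p of 0.05, 1697 genes (11.3%) were higher and 516 (3.45%) lower. The same fit for Axin2/Nkd1 cells gave 1533 (9.89%) and 440 (2.84%) of 15494 genes. Both fits share the wild-type libraries, so their values are set side by side and not compared by a test. The BcatGOF cells were chosen by Wnt target transcripts and the wild-type gates were not, so differences in Wnt targets can be partly built in. Against only wild-type cells with an Axin2 or Nkd1 molecule, 1302 and 575 genes were called for Lgr5 Notum cells. The counts for Axin2/Nkd1 cells were 1094 and 358. Of 90 named calls in Lgr5 Notum cells, 74 were kept there and 16 lost. The lone BcatGOF sum is assumed to vary like the wild-type libraries, nothing in the labels says that these came from separate animals, and the p-values then measure only the spread between samples, which may be technical. Without wild-type library 2 the calls were 754 and 147 for Lgr5 Notum cells and 396 and 56 for Axin2/Nkd1 cells.

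Genotype and processing cannot be told apart in these calls, since BcatGOF reads were counted with a later version of Cell Ranger than wild-type reads. Sex type differs with genotype too. Xist without Y-linked transcripts was seen in 53.4% of Lgr5 Notum cells, against 0.253%, 0.661% and 0.223% of cells in the wild-type gates. Y-linked BcatGOF cells alone were fitted as an alternative. When only genes with 5 kb or less of intron were fitted, 40 higher and 12 lower calls were left. Levels below are CPM of the plain sums, and log2 fold changes include the TMM scaling of edgeR, which shifted all genes by −0.30.

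The Wnt feedback genes rose strongly. Of 6 tested apart from the genes of the rule, 5 rose, and the median of their log2 fold changes was 3.83. In Axin2/Nkd1 cells 4 of 7 rose and the median was 2.63. Over all genes tested 11.3% and 9.89% rose, and the median was −0.02 and 0.00. The count filter let a gene in on the level of 1 sum alone, and the other genes of the list were not tested. Apcdd1, among the 5, had no wild-type molecule and entered only through Lgr5 Notum cells, so its rise adds no support. Sp5 stood at 90.5 CPM, where the wild-type gates had 0.339, 1.54 and 0.855 CPM. Its log2 fold change was 6.54 ± 0.588 (SE; adjusted p = 0.00580, edgeR). It has 707 bases of intron and was called also among short-intron genes. Znrf3 stood at 311 CPM against 20.3, 25.9 and 27.6 (3.37 ± 0.225, adjusted p = 0.00318, edgeR). Rnf43 stood at 194 CPM against 21.7, 33.9 and 41.9 (2.28 ± 0.358, adjusted p = 0.0190, edgeR). In each case the BcatGOF value lay far outside the wild-type range.

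The remaining feedback genes were scarce. Tcf7, a TCF/LEF factor, rose from 0.875, 1.29 and 1.28 CPM to 15.5 CPM (adjusted p = 0.00847, edgeR). Apcdd1, an inhibitor at the Wnt receptor, had no molecule in any wild-type gate and 5.16 CPM in Lgr5 Notum cells, at least 94.3-fold higher from a floor of 3 counts over the pooled wild-type gates. With Y-linked BcatGOF cells alone it was not called (adjusted p = 0.0597, edgeR), nor against wild-type cells with an Axin2 or Nkd1 molecule (log2 fold change 7.64). Lef1 did not pass (5.36 CPM against 0.0282, 0.242 and 0.712; adjusted p = 0.0810, edgeR). For reference, Axin2 stood at 2.99, 7.76 and 6.12 CPM and Nkd1 at 1.16, 3.56 and 2.85 CPM in wild type.

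Among other Wnt targets, 5 of 24 rose, none was lower, and the median on the log2 scale was 0.80 (3 of 26 and 0.45 in Axin2/Nkd1 cells). Tnfrsf19 was the largest, at 196 CPM where wild type had 0.282, 1.54 and 0.570 CPM (log2 7.82 ± 0.665, adjusted p = 0.00522, edgeR; 6.61 in Axin2/Nkd1 cells). Ascl2 rose by a log2 fold change of 2.67 ± 0.493 (37.3 CPM against 2.51, 7.03 and 5.27; adjusted p = 0.0286, edgeR), with a log2 fold change of 3.05 among short-intron genes, where it was not called (adjusted p = 0.0716, edgeR). Hunk, a kinase gene, rose by 2.35 ± 0.165 (adjusted p = 0.00355, edgeR). Of 21 Wnt receptors and antagonists, a separate list, 2 rose and 2 fell, beside 11.3% and 3.45% of all genes tested. The list's median was 0.21. Its receptor Fzd10, a gene without introns, rose from 0.169, 0.323 and 0.427 CPM to 12.1 CPM (5.18 ± 0.555, adjusted p = 0.00796, edgeR), while Fzd4 was among the lower. Ctnnb1 itself was lower (−1.19 ± 0.259, adjusted p = 0.0417, edgeR), and not called without wild-type library 2 (−1.23, adjusted p = 0.136, edgeR) or on library totals alone (−0.89, adjusted p = 0.0730, edgeR).

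**Figure D5:**
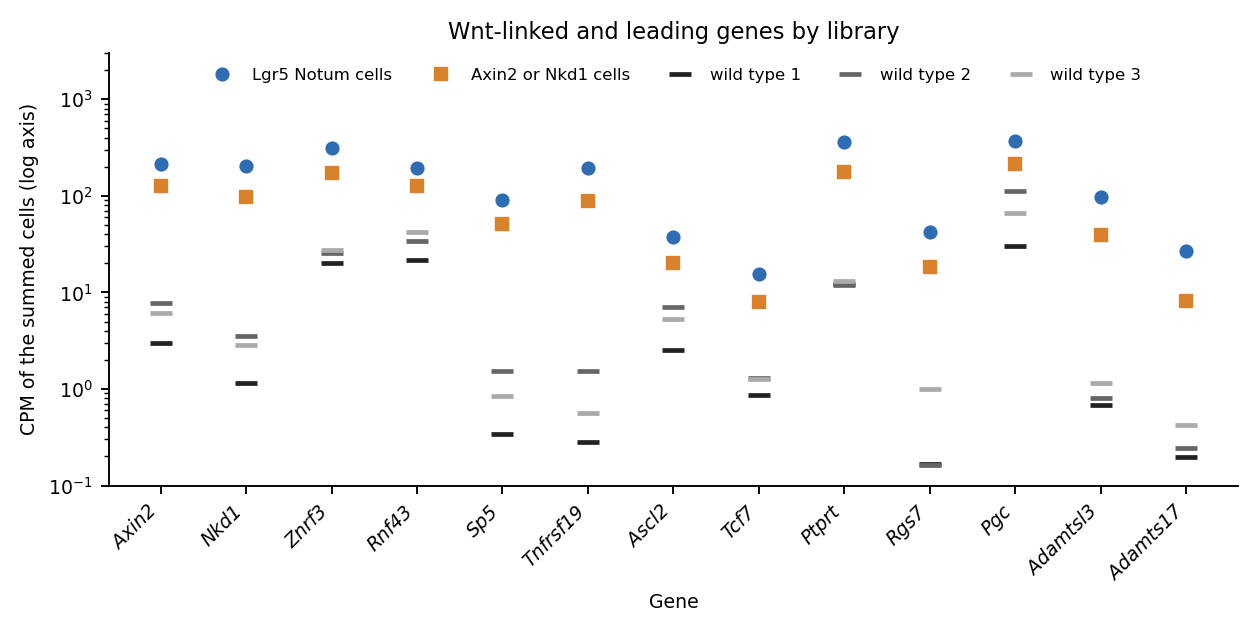
CPM of summed cells (log axis) for Wnt-linked and leading genes in Lgr5 Notum cells and Axin2/Nkd1 cells of the BcatGOF library and in the 3 wild-type epithelial gates. For each gene the circle lies above the square and both above the 3 wild-type marks, with Tnfrsf19 at 196, 88.0 and at most 1.54 CPM.

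Of the markers that describe these cells, Ptprt and Rgs7 also rose, and Pgc did not pass. These markers, with Tnfrsf19 above, were chosen with earlier results of these data known. Their tests therefore lend the label of the cells no support. Ptprt rose by a log2 fold change of 4.57 ± 0.183 (363 CPM against at most 13.2; adjusted p = 0.00256, edgeR). Rgs7 rose by 6.76 ± 0.724 (42.4 CPM against 0.169, 0.162 and 0.997; adjusted p = 0.00796, edgeR). Pgc stood at 374 CPM against 30.1, 112 and 67.1 (2.15 ± 0.608, adjusted p = 0.0753, edgeR). Adamtsl3 rose by 6.62 ± 0.267 (adjusted p = 0.00256, edgeR) and Adamts17 by 6.40 ± 0.421 (adjusted p = 0.00318, edgeR). Ptprt, Rgs7, Adamtsl3 and Adamts17 hold long introns, which the short-intron fit leaves out. Serpinb11, a serpin gene, had no molecule in the wild-type gates and stood at 73.9 CPM, at least 1351-fold higher, and at least 769-fold higher in Axin2/Nkd1 cells.

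Inside the BcatGOF library 2 of 11 measured gastric and gland secretory genes, Gkn3 and Muc6, were at least 2-fold higher in Lgr5 Notum cells, and the list's median log2 ratio was 0.07. Neither gene passed the test against wild type. Gkn3 was at 874 CPM against 29.8, 113 and 141 CPM (2.91, adjusted p = 0.0596, edgeR), and Muc6 at 65.9 CPM against 16.9, 60.1 and 360 CPM (−1.47, adjusted p = 0.580, edgeR). Of 15 gastric and gland secretory genes tested, 2 fell, Spink4 and Fcgbp, and no other passed. Spink4, a protease inhibitor of goblet cells, was at 1067 CPM against 23467, 19069 and 12142 CPM (−4.38 ± 0.526, adjusted p = 0.0103, edgeR). It was lower also in Axin2/Nkd1 cells (1588 CPM).

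Many changes were also called in Axin2/Nkd1 cells. Over all genes tested 11.3% rose and 3.45% fell in Lgr5 Notum cells, and 9.89% and 2.84% in Axin2/Nkd1 cells. Of 21 interferon response genes 15 rose in either group, such as Ifi44 (log2 fold change 4.12 and 3.78). Of 22 immediate early genes 8 rose in either group, led by Atf3, a stress-induced factor, (2765 and 2649 CPM, against 8.21, 18.6 and 16.5).  Of 24 neuronal and synaptic genes 15 rose (21 of 31 in Axin2/Nkd1 cells), such as Cntnap2 (log2 fold change 5.22, adjusted p = 0.00815, edgeR). Of 22 oxidative phosphorylation subunits 10 fell (8 in Axin2/Nkd1 cells), such as Cox7c (594 and 600 CPM, against 1551, 1651 and 1504).

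Other lists rose in part in both groups, under the same limit of processing and beside the same shares of all genes. Of 19 antigen presentation genes 8 rose (6 of 19 in Axin2/Nkd1 cells). Of 16 cilium genes 7 rose (7 of 16), and of 19 Hedgehog and BMP genes 6 rose (4 of 21). Among the last was Id3 (log2 fold change 1.41, adjusted p = 0.0262, edgeR). The Id3 call was lost against wild-type cells with an Axin2 or Nkd1 molecule (0.53) and among short-intron genes (1.80).

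Growth factor genes rose in part, where 11.3% of all genes tested rose (9.89% in Axin2/Nkd1 cells). Of 28 genes of the EGF and FGF families 8 rose (8 of 32 in Axin2/Nkd1 cells), among them Lrig1 (64.5 CPM against 5.87, 10.3 and 8.40; 2.70 ± 0.294, adjusted p = 0.00817, edgeR). Erbb4 stood at 45.8 CPM against 0.677, 2.67 and 0.142 CPM (5.00 ± 0.827, adjusted p = 0.0216, edgeR), but at 68.1 CPM in Axin2/Nkd1 cells. Areg stood at 121 CPM against 8.04, 2.02 and 0.285 CPM (4.65 ± 1.02, adjusted p = 0.0433, edgeR) and was not called without wild-type library 2 (4.35, adjusted p = 0.0863, edgeR), with DESeq2 (4.83, adjusted p = 0.0768) or in Y-linked BcatGOF cells alone (4.59, adjusted p = 0.0519, edgeR). Of 18 YAP targets 6 rose in either group, led by Cyr61 (log2 fold change 3.90 and 3.78). Of 29 biliary identity genes 2 rose and 1 fell, against 11.3% and 3.45% of all genes tested, so the list did not stand out. The factor Ehf was higher (1.10 ± 0.186, adjusted p = 0.0230, edgeR) and Hhex was lower (−0.83, adjusted p = 0.0493, edgeR). The Ehf call was lost without wild-type library 2 (1.10, adjusted p = 0.117, edgeR), and the Hhex call in 11 of 12 alternatives, with adjusted p from 0.0501 to 0.257. Krt19 did not differ past the threshold (log2 fold change 0.11, adjusted p = 0.923, edgeR).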

How the data were processed

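Droplet 3′ RNA counts were analysed from 4 common bile duct libraries, 1 BcatGOF and 3 wild type. The deposited values are raw counts of UMIs per gene and cell, not normalized. They were made with Cell Ranger 7.1 on mm10 per the submitters' processing notes, but per the file headers with version 7.0.0 for BcatGOF (32285 genes) and 3.0.2 for wild type (31053 genes). Whether intronic reads were counted is not given in the sources used here. Libraries were compared over 30406 shared gene identifiers, all of which matched the GRCm38 annotation.

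Cells were gated as the report states. Counts were summed over cells, and CPM scales each sum to a common total, without TMM. Within the BcatGOF library a gene counted as higher or lower at 2-fold where either group reached 20 CPM, with exact conditional Clopper-Pearson intervals at 95%. Against wild type, sums were fitted with edgeR 4.0.16 (R 4.3.3; TMM, filterByExpr, quasi-likelihood test, Benjamini-Hochberg threshold 0.05). DESeq2 1.42.0 was an alternative. The code was tested on simulated data. Clustering used scanpy 1.11.5 and igraph 0.11.9 (2000 variable genes, 30 principal components). Doublets were called with Scrublet at a rate set by the number of cells and kept, with leaving them out as an alternative.

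The members, the 29 gene lists and the marker lists were chosen with earlier results of these data known. Named genes were Lgr5, Notum, Axin2, Nkd1, the 4 markers Rgs7, Ptprt, Tnfrsf19 and Pgc, Ctnnb1, Prom1, the 12 largest differences in each direction within the library, up to 4 genes per list by log2 ratio and up to 3 per list by fold change among those called against wild type. Genes outside this rule, such as Trpm5, Epcam and Serpinb11, were chosen after their values were seen. Clusters of other cell types, cluster weighting and sex type were alternatives chosen after seeing the data. Results for a few genes are not reported here.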

Additional observations from a re-analysis of the deposited data

How the results depend on the processing

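Of 87 alternative values for the counts of genes and the share of cells, 50 moved by less than the limits set and 37 moved further. Of 1810 values of single genes within the library, 972 moved little, 805 moved further and 33 were changes of sign in genes that had passed 2-fold. In all, 114 values changed sign, 81 of them in genes under 2-fold as reported, with 40 in cells without 7 marker genes, 30 weighted to clusters and 22 without clusters of other types. Of 1936 values against wild type, 1737 kept their side of the threshold, 120 lost and 79 gained it. Where a value moved, the cause was not tested. The count of higher genes within the library, 26, became 60 with the comparison cells weighted to the members' depth, 62 with 4 or more molecules, 83 with 2 or more of Lgr5 and 67 against every gate cell without Lgr5 and Notum. The count of lower genes, 150, became 85 against cells with 2 or more Axin2 and Nkd1 molecules and 5 without clusters of other types. Higher and lower counts were 436 and 320 in cells without 7 marker genes, 45 and 253 at 10 CPM, 13 and 60 at 50 CPM, 2021 and 3774 with no filter, and 2 and 3 weighted to clusters. The share of cells, 11.5%, was 1.56% after thinning, 21.3% at 1 molecule and 4.81% at 4. Among genes that had passed 2-fold, signs that changed on the log2 scale were Ghrl 0.16 in Y-linked cells; Ghrl 0.64 and Ppy 3.90 against cells with 2 or more Axin2 and Nkd1 molecules; and, in cells without 7 marker genes, Gpm6a 0.42, Vim 0.49, Ror1 0.71, Hmcn1 1.42, Pkhd1l1 1.42 and Timp1 1.59. Weighted to clusters, the changes among those genes were Muc6 −0.77, Bst2 0.03, Ror1 0.04, Slpi 0.05, Ghrl 0.09, Gpm6a 0.22, Vim 0.25, Adamts1 0.33, Pkhd1l1 0.46, Slit3 0.50, Ppy 0.51 and Hmcn1 0.98. Without clusters of other types, the changes among those genes were Vim 0.01, Adamts1 0.03, Rarres2 0.11, Pkhd1l1 0.13, Ror1 0.13, Timp1 0.24, Rspo1 0.25, Ppy 0.37, Bst2 0.40, Slit3 0.57, Ghrl 0.67 and Hmcn1 0.91. Against wild type, calls in Lgr5 Notum cells were 1122 lower with DESeq2, 2605 higher and 314 lower on library totals alone, and 40 higher and 12 lower among short-intron genes. Leaving out 1 wild-type library gave 754 to 2230 higher and 147 to 1016 lower calls. Calls in Axin2/Nkd1 cells were 1160 lower with DESeq2, 2630 higher and 245 lower on library totals, and 45 higher and 17 lower among short-intron genes. Leaving out 1 wild-type library gave 396 to 2015 higher and 56 to 827 lower calls. No paired analysis was possible because the single BcatGOF library carries no number that ties it to a wild-type library. Depth limits what the wild-type gates show, since their median cells held 7401.0, 3615.0 and 2449.0 molecules.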
